A study of Mus musculus with 4 samples.

Results

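The 9 genes described here encode negative regulators of Toll-like receptor (TLR) and cytokine signalling: Socs1, Socs3, Cish, Irak3, Tnfaip3, Tnip1, Tnip3, Zc3h12a and Zfp36. They were taken by name from the arrays, as every non-control probe whose gene name equals one of these symbols. That gave 14 probes for 9 of the 37008 genes and transcripts on the array. All 9 genes were well above background on at least 1 array and 8 of them on all 4, the exception being Cish. Of the 14 probes, 9 were well above background on all 4 arrays.

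Messenger RNA was measured in RAW264.7, an established mouse macrophage cell line, on 4 one-colour Agilent arrays with Cy3-labelled RNA. The study asked how knockout of Hsd17b4 changes gene expression in these cells, and how lipopolysaccharide (LPS) acts on cells with and without the gene. Hsd17b4 encodes the peroxisomal multifunctional protein Mfp2, an enzyme of fatty acid beta-oxidation. The groups were untreated wild-type cells, wild-type cells with LPS, untreated Mfp2-/- cells and Mfp2-/- cells with LPS, with 1 array each. The Mfp2-/- cells are called knockout below. The sources used here give neither the LPS dose and time, nor how the knockout was made, nor whether it is 1 clone. With 1 array a group, differences between 2 arrays lack a replicate check and carry no p-value. A difference between genotypes cannot be told apart from one between these 2 cultures or between positions on the slide.

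LPS is a component of the bacterial outer membrane that activates macrophages through TLR4, the kinases of the IRAK family and the transcription factor NF-kB. The cytokines and interferons that follow signal through Janus kinases (JAK) and STAT transcription factors. The proteins of the 9 genes are brakes on these chains, and most are themselves induced by the signal they limit. Socs1, Socs3 and Cish belong to the SOCS family, which blocks JAK-STAT signalling. Irak3, also called IRAK-M, holds back the IRAK complex at the receptor. Tnfaip3 encodes A20, a ubiquitin-editing enzyme, and Tnip1 and Tnip3 encode the A20-binding proteins ABIN1 and ABIN3. Zc3h12a encodes Regnase-1, an RNase, and Zfp36 encodes tristetraprolin, which binds AU-rich elements. Both shorten the life of cytokine messenger RNAs.

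The start regions of 7 of the 9 genes hold a match to a motif of one of these pathways, and those stretches are shown because NF-kB, STAT and interferon factors are known to recognise such letters. Each window ran from 250 bases before to 50 bases after an annotated start in RefSeq's GRCm38.p6 annotation, and all 9 genes were found there with 11 windows. Both strands were searched for the NF-kB motif of 10 letters, for the STAT motif GAS (TTCNNNGAA), for the interferon motif ISRE (GAAA, any 2 bases, GAAA) and for the cyclic AMP motif CRE (TGACGTCA). NF-kB matches lay in windows of 3 genes, Tnfaip3, Tnip1 and Tnip3, against 8.46% of all 32851 windows. GAS matches lay in windows of 4 genes, Cish, Socs3, Tnip1 and Zfp36, against 8.30% of all windows. The ISRE was matched in Socs1, against 3.44% of windows, and the CRE in 0 of the 9, against 1.79%. The windows of Irak3 and Zc3h12a held 0 matches of these letters. The share of all windows with a match to any of these motifs was not computed, so the 7 of 9 has no background beside it. Genes are counted here over all their windows, whereas the shares are of single windows. In the lines that follow, capitals mark the matches, and each sequence runs 5′ to 3′ along the gene's strand.
Socs1, chr16:10785537-10785636, minus strand: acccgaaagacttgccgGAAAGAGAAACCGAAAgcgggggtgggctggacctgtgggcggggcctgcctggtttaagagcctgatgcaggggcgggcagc
Socs3, chr11:117969367-117969536, minus strand: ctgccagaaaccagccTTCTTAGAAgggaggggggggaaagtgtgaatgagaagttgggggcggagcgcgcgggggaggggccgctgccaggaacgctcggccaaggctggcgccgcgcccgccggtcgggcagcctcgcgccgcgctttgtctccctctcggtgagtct
Cish, chr9:107296654-107296683, plus strand: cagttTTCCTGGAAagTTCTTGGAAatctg
Tnfaip3, chr10:19015411-19015550, minus strand: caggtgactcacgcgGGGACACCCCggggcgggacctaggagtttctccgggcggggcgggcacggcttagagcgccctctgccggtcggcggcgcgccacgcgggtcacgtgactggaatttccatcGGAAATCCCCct
Tnip1, chr11:54962941-54963150, minus strand: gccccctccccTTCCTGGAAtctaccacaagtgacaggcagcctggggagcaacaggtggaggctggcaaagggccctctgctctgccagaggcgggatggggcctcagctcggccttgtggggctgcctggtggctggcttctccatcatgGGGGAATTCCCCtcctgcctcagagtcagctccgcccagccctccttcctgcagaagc
Tnip3, chr6:65590328-65590397, plus strand: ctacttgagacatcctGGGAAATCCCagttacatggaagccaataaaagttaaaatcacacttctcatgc
Zfp36, chr7:28379229-28379288, minus strand: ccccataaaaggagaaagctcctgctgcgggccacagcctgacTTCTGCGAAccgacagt

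In Tnip1 the capitals near the start cover 3 overlapping NF-kB matches, which begin 58, 57 and 56 bases before it, and a GAS match begins 199 bases before it. In Socs1 they cover 2 overlapping ISRE matches, 83 and 77 bases before the start. Tnfaip3 has NF-kB matches at 125 and 12 bases, Tnip3 at 54 bases, Socs3 a GAS match at 154 bases and Zfp36 at 17 bases before the start. Both GAS matches of Cish lie just after its start. A match describes the letters only, and the absence of one says nothing about the factor.

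The share of non-control spots well above background ranged from 47.4% to 49.7%, and 0 were saturated. The knockout arrays were the noisier ones, with a spot SD within an array of 0.0815 untreated and 0.112 with LPS against 0.0581 and 0.0587 in wild type, and 137 and 149 outlier spots against 90 and 106. The technical SDs below pool the arrays. On every array 12 of 12 macrophage markers were well above background, with summed linear scaled levels between 1125 and 1404. Markers of B cells (0 to 1 of 4), fibroblasts (0 to 1 of 5), epithelium (0 to 1 of 4) and endothelium (0 to 2 of 3) were mostly at background, while 2 of 4 T cell and 2 of 4 granulocyte markers were above it on every array. The transcript of the targeted gene Hsd17b4 was lower in knockout and was not lost: its processed signal was 4482 and 2915 in wild type without and with LPS, and 2545 and 1217 in knockout. Scaled, that is a difference of -0.86 without and -1.17 with LPS. Which part of Hsd17b4 was disrupted is not in the labels, and a probe outside that part checks nothing.

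Levels are given as the processed signal of the array and as a scaled level, which is log2 of that signal minus the array's 75th percentile. A difference is between scaled levels, in log2. A gene counted as higher or lower at a difference of at least 2-fold. Where only 1 of 2 arrays was well above background, the fold is a lower bound, written "at least": the dim array then counts at its detection floor (its lowest signal well above background), or at its own signal if that is higher. The spread of replicate spots within an array gave a technical SD of a difference of 0.0998 for bright, 0.133 for middle and 0.43 for dim signals. This SD does not cover differences between cultures. It rests on 1065 pairs of a replicated probe and an array for bright signals, but on 24 for middle and 18 for dim ones.

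With LPS, 8 of the 9 brakes were higher in wild-type cells and all 9 in knockout cells, and 0 were lower in either. The median difference was 2.0 in wild type and 2.11 in knockout, against 0.010 and -0.0067 over all genes compared, genes dim on 1 of the arrays included. In wild type 9.71% of 18202 genes were higher and 8.56% lower. In knockout 11.0% of 18391 genes were higher and 12.4% lower. 1 increase in each genotype, that of Cish, rests on a bound and on a gene above background with LPS alone. The knockout call of Tnip3 rests on 1 of its 2 probes, and which probe reads the coding transcript was not settled for Tnip3 and Zc3h12a. The gene short of the call in wild type was Tnip3.

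**Figure D1:**
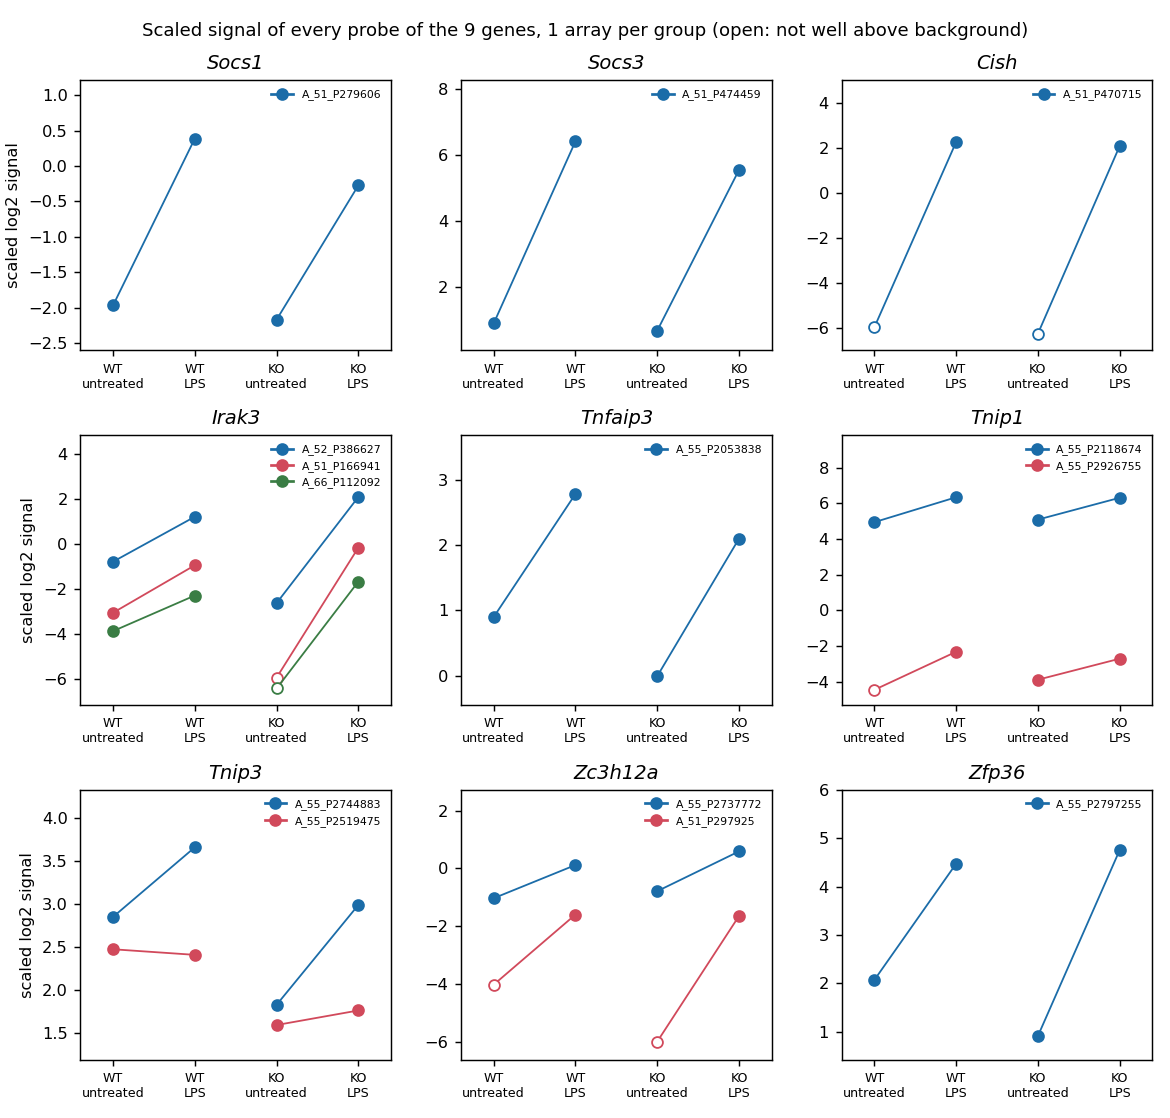
Scaled log2 signal (vertical axis) of every probe of the 9 genes on the 4 arrays (horizontal axis), 1 array per group, with lines joining untreated and LPS of a genotype and open circles where the probe was not well above background. The representative probe is blue; its 2 LPS arrays sit above its 2 untreated arrays in all 9 panels, by least in Tnip3, where untreated wild type is at 2.85 and knockout with LPS at 2.99.

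Of the SOCS family, Socs3 and Cish gave the largest responses among the 9 genes. Socs3, which blocks signalling by the interleukin 6 receptor, had a processed signal of 668 without and 27539 with LPS in wild type, and 594 without and 14215 with LPS in knockout (scaled levels 0.90, 6.42, 0.68 and 5.55). The untreated arrays were alike and both LPS arrays were far above them, wild type the higher. The response was 45.8-fold in wild type and 29.2-fold in knockout. The probe lies at chr11:117827480-117827539 in the mm9 coordinates of the files.

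Cish, a brake on STAT5 signalling downstream of growth factor receptors, was not well above background on either untreated array. Its signal was 1541 in wild type and 1285 in knockout with LPS, and 5.68 and 4.83 without it. The increase was at least 76.4-fold in wild type and at least 77.5-fold in knockout, and with LPS the genotypes differed by -0.17 (technical SD 0.133). With normexp background correction the bounds were lower, at 4.27 and 4.38 in log2 against 6.26 and 6.28. The probe lies at chr9:107204196-107204255.

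Socs1, a brake on interferon receptors, had the smallest response of the SOCS genes among the 9. Its signal was 91.6 (untreated) and 422 (LPS) in wild type, and 82.4 (untreated) and 251 (LPS) in knockout (scaled levels -1.97, 0.39, -2.17 and -0.27). Both LPS arrays were above both untreated arrays. The response was 5.11-fold in wild type and 3.72-fold in knockout. With dim untreated signals the technical SD of each response is 0.32, and the 2 responses differed by -0.46 (technical SD 0.45). The probe lies at chr16:10783951-10784010.

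Irak3, the brake next to the receptor, had the widest gap between the genotypes. Its brightest probe (chr10:119578999-119579058) had a signal of 208 without and 747 with LPS in wild type, and 60.3 without and 1294 with LPS in knockout. The scaled levels were -0.78, 1.21, -2.62 and 2.09, so knockout had both the lowest and the highest value. The response was 3.99-fold in wild type and 26.2-fold in knockout (4.71 in log2). The knockout response was 3.39 in log2 with normexp and 5.08 with the mean of the probes.

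The other 2 Irak3 probes had the same order of the 4 arrays. The probe at chr10:119579589-119579648, 590 bases away, had scaled levels of -3.05, -0.94, -5.92 and -0.15, and the probe that spans chr10:119615854-119619639 had -3.86, -2.28, -6.41 and -1.66. Both were not well above background in untreated knockout. Their wild-type responses were 4.31-fold and 2.99-fold, and their knockout responses at least 16.4-fold and at least 5.78-fold. The last probe has 60 bases but covers 3786 bases of the genome, so it crosses a splice junction and reads spliced Irak3 transcript. It starts at base 336 of the transcript NM_028679, while the brightest probe starts at base 2620, and is shown because it gives the same order of arrays from another part of the transcript. On this dim probe knockout minus wild type was -0.33 or lower untreated and 0.62 with LPS (technical SD 0.43 for each).
Irak3 junction probe: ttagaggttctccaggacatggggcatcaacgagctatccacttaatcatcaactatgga

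The A20 gene Tnfaip3 responded by similar folds in both genotypes from different starting levels. Its signal was 668 (untreated) and 2223 (LPS) in wild type, and 369 (untreated) and 1302 (LPS) in knockout (scaled levels 0.90, 2.78, -0.0043 and 2.10). Knockout was below wild type both without and with LPS. The response was 3.69-fold in wild type and 4.30-fold in knockout. The probe lies at chr10:18720776-18720835.

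Tnip1, whose product brings A20 to its substrates, was bright on every array with its main probe. The signal of its main probe (chr11:54724291-54724350) was 11024 without and 26224 with LPS in wild type, and 12592 without and 24169 with LPS in knockout. The genotypes lay close together in both conditions, and the responses were 2.64-fold and 2.34-fold. The knockout response fell short of 2-fold with normexp (0.83 in log2) and spike-in centring (0.99). A second probe, 29922 bases away and designed on another transcript, was dim, with signals not well above background in untreated wild type. It gave responses of at least 3.19-fold and of 2.27-fold.

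Tnip3, the relative of Tnip1, passed or missed the 2-fold call with LPS depending on the probe. The probe at chr6:65550106-65550165, designed on the transcript EF585495, had signals of 2584 and 4080 in wild type without and with LPS, and of 1316 and 2414 in knockout. That is a response of 1.75-fold in wild type and 2.24-fold in knockout, the latter short of 2-fold with spike-in centring (0.93 in log2) and with the mean of both probes (0.66). The probe at chr6:65582156-65582215, 32050 bases away on the transcript NM_001001495, had 1992 and 1716 in wild type and 1118 and 1032 in knockout, a response of -0.06 and 0.17 in log2. Both probes had lower values in knockout than in wild type, without and with LPS.

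Zfp36, the tristetraprolin gene, was the second brake whose response was larger in knockout by at least 2-fold, after Irak3. Its signal was 1500 (untreated) and 7165 (LPS) in wild type, and 694 (untreated) and 8206 (LPS) in knockout (scaled levels 2.07, 4.47, 0.91 and 4.76). As in Irak3, the lowest and the highest array were both knockout. The response was 5.30-fold in wild type and 14.4-fold in knockout. The probe lies at chr7:29161963-29162022.

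Zc3h12a, the Regnase-1 gene, was higher with LPS on both of its probes, by different amounts. The brighter probe (chr4:124803611-124803670, on the clone AK163109) had signals of 175 and 350 in wild type without and with LPS, and of 214 and 457 in knockout, a response of 2.22-fold in wild type and 2.60-fold in knockout. The wild-type response fell short of 2-fold with normexp (0.88 in log2) and spike-in centring (0.93). The RefSeq probe (chr4:124795870-124795929, 7741 bases away on NM_153159) had scaled levels of -1.60 and -1.64 with LPS in wild type and knockout and was not well above background on either untreated array. Its responses were at least 5.29-fold and at least 5.86-fold.

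**Figure D2:**
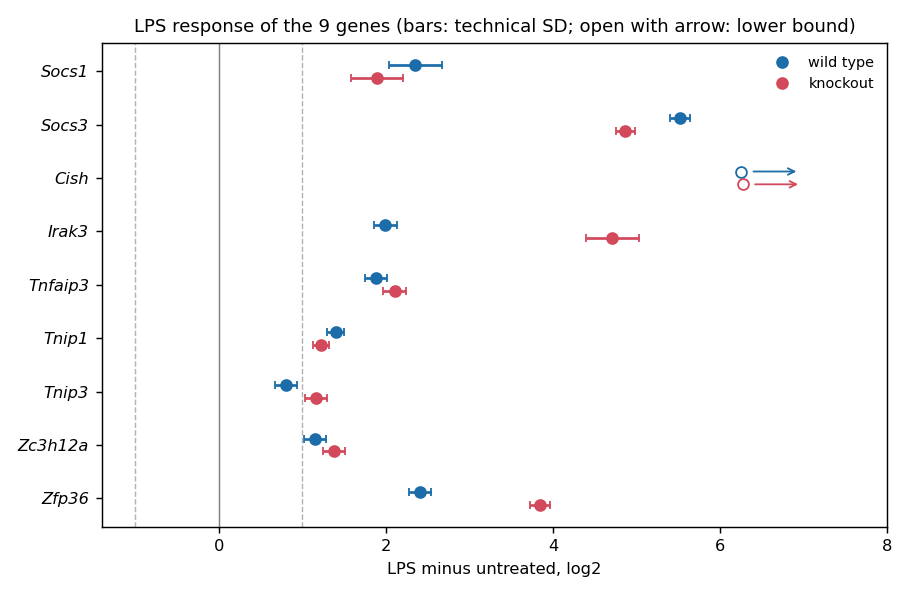
LPS minus untreated in log2 (horizontal axis) for the representative probe of each gene, in wild type (blue) and knockout (red), with bars of 1 technical SD and open circles with arrows for lower bounds. Dashed lines mark 2-fold; Irak3 (2.0 and 4.71) and Zfp36 (2.41 and 3.85) lie farther right in knockout, and Socs3 (5.52 and 4.87) farther right in wild type.

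Without LPS, 3 of 8 measured brakes were lower in knockout than in wild type and 0 were higher. Over all 18404 genes compared, 3.91% were lower and 3.07% higher. The median of the 8 genes was -0.56, against 0.056 over all genes. The 3 were Irak3, 3.57-fold lower (-1.83, technical SD 0.32), Zfp36, 2.23-fold lower (-1.16, technical SD 0.133), and Tnip3, 2.03-fold lower (-1.02, technical SD 0.133). Tnip3 lay at the threshold, with -0.88 on its other probe and -0.95 with the mean of both, and Tnfaip3 just short of it at -0.90. Socs1 (-0.20), Socs3 (-0.22), Tnip1 (0.15) and Zc3h12a (0.24) differed by 1.18-fold or less, and Cish was not measured. For Irak3 the difference was -1.06 with normexp, near the threshold, and -2.42 with the mean of its probes, and the other probes gave at least 2.21-fold lower and at least 1.26-fold lower.

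With LPS, 0 of 9 brakes were lower and 0 higher in knockout by 2-fold. In this comparison 4.37% of 17730 genes were lower and 1.86% higher. The median of the 9 genes was -0.17, against 0.045 over all genes. Irak3 was 1.84-fold higher in knockout (0.88, technical SD 0.133), with 0.79 and 0.62 on its other probes. Socs3 was 1.82-fold lower (-0.87, technical SD 0.0998), Tnfaip3 1.61-fold lower (-0.68), Tnip3 1.59-fold lower (-0.67) and Socs1 1.58-fold lower (-0.66). On the representative probes those 5 differences exceed the technical SD several times over and stay under the 2-fold call. For the Irak3 probe with 0.62 the technical SD is 0.43. Zc3h12a (0.47), Zfp36 (0.28), Cish (-0.17) and Tnip1 (-0.03) differed by less.

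**Figure D3:**
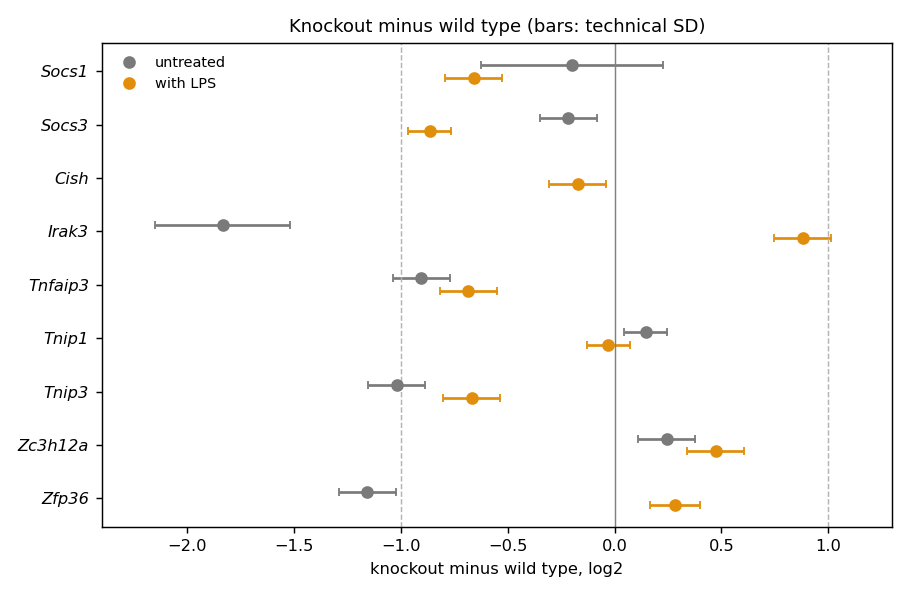
Knockout minus wild type in log2 (horizontal axis) for the representative probe of each gene, untreated (grey) and with LPS (orange), with bars of 1 technical SD and dashed lines at 2-fold. Irak3 goes from -1.83 to 0.88 and Zfp36 from -1.16 to 0.28, Tnfaip3 and Tnip3 are below 0 in both conditions, and Cish has no untreated value.

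The LPS response of knockout minus that of wild type was measured for the 8 genes well above background on all arrays. By this measure 2 brakes were higher, Irak3 and Zfp36, and 0 lower. Of all 15526 genes measured, 1.69% were higher and 2.92% lower. Irak3 differed by 2.71, or 6.56-fold (technical SD 0.34), which is above 99.92% of the genes. Its other probes gave at least 1.93 and at least 0.95. Zfp36 differed by 1.44, or 2.72-fold (technical SD 0.178), above 99.43% of the genes.

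Most of that gap came from the untreated arrays: in Irak3, -1.83 untreated against 0.88 with LPS, and in Zfp36, -1.16 against 0.28. The untreated knockout array enters both the genotype difference and the knockout response, so the 2 measures share it. The other 6 genes lay between -0.65 (Socs3) and 0.35 (Tnip3), with Tnfaip3 at 0.22 and Socs1 at -0.46. Zc3h12a was at 0.23 (1.08 with the mean of its probes, 1 of them dim without LPS). Tnip1 was at -0.17 (-0.48 with normexp and -0.57 with the mean of its probes, 1 of them dim in untreated wild type). The median of the 8 genes was 0.22, against 0.0028 over all genes.

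**Figure D4:**
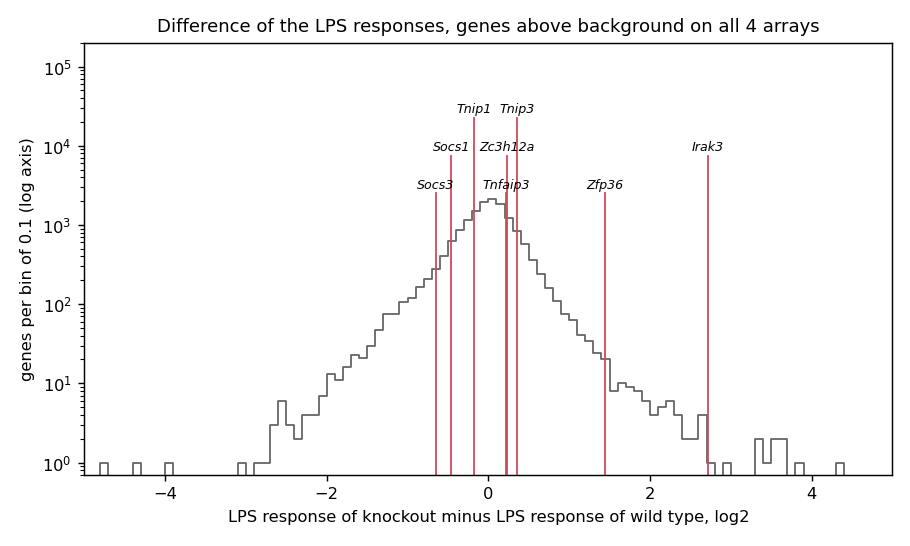
Number of genes per bin of 0.1 (vertical axis, log scale) by the difference of the LPS responses, knockout minus wild type, in log2 (horizontal axis), for 15526 genes, with red lines at the 8 measured brakes. Irak3 at 2.71 and Zfp36 at 1.44 lie in the right tail, and the other 6 lie between -0.65 and 0.35; the height of a red line carries no value.

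An additive fit over all 4 arrays used the genotypes as the only repeats of LPS, and LPS as the only repeat of the genotype. With 1 residual degree of freedom, unequal LPS responses of the genotypes count as noise in it. Each gene entered with its representative probe. For Tnip3 the other probe had responses of -0.06 in wild type and 0.17 in knockout. In this limma fit 11.2% of 17370 genes were higher and 11.3% lower for the LPS term (Benjamini-Hochberg, threshold 0.05), and 8 of the 9 brakes were higher. Cish, 1 of these 8, entered the fit only through its LPS arrays and had to come out higher, so its p is not given. Of the 8 brakes above background on all 4 arrays, 7 passed. Socs3 rose by 5.19 ± 0.22 (SE, limma adjusted p 0.0240), Zfp36 by 3.13 ± 0.43 (limma adjusted p 0.0362) and Socs1 by 2.12 ± 0.18 (limma adjusted p 0.0266). Tnfaip3 rose by 2.0 (limma adjusted p 0.0246), Tnip1 by 1.31 (0.0291), Zc3h12a by 1.26 (0.0300) and Tnip3 by 0.98 (0.0421). Irak3, with 3.35 ± 0.79, did not pass (limma adjusted p 0.0714), the gene with the most unequal responses.

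For the genotype term the same limma fit called 0.0% of genes higher and 0.0% lower, so 0 of the 9 brakes. At an unadjusted p under 0.05, limma gave 1710 genes, or 9.84%, and 2 of the brakes. These were Tnfaip3 (-0.79, limma p 0.00944, adjusted 0.301) and Tnip3 (-0.84, limma p 0.0119, adjusted 0.335), lower in knockout on both pairs of arrays.

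Other genes of the same pathways were described from lists, each without the 9 genes, by counts and medians. Beside the list counts with LPS stand the shares over all genes. These were 9.71% higher and 8.56% lower in wild type, and 11.0% and 12.4% in knockout. Of 15 other JAK-STAT brakes 2 were higher and 0 lower with LPS in wild type, and 2 and 0 in knockout, with medians of 0.18 and 0.44. Of the wild-type calls 1, that of Socs2, rests on a bound of a gene above background with LPS alone, which could not come out lower. Usp18, which restrains the interferon receptor, was 8.99-fold higher in wild type and 4.64-fold in knockout. Socs2, another SOCS gene, was at least 4.32-fold higher in wild type and at least 1.94-fold in knockout, and with LPS it was 2.54-fold lower in knockout. Sh2b3, an adaptor that restrains cytokine receptors, was 1.75-fold and 2.33-fold higher. Against these medians the SOCS members of the 9 genes stood at 1.89 or more in each genotype. The list itself holds Socs4 to Socs7, with responses from -0.24 (Socs5, wild type) to 0.58 (Socs4, knockout). Members and lists were split with earlier results of these data known, so this contrast is not a test.

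Of 19 other TLR and NF-kB brakes 4 were higher and 0 lower in wild type, and 4 higher and 1 lower in knockout, with medians of 0.27 and 0.37. Atf3, a transcriptional repressor of TLR target genes, was 6.24-fold higher in wild type and 14.6-fold in knockout, a difference of responses of 1.23. Trim30a went the other way, with 7.75-fold and 3.44-fold and a difference of -1.17, and Nlrc5 had 4.52-fold and 2.30-fold. Sigirr, an inhibitory receptor of the TLR family, fell with LPS by 1.82-fold in wild type and by 3.19-fold in knockout. Against wild type, knockout was 2.88-fold higher without and 1.64-fold higher with LPS.

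The list of 18 other genes of mRNA decay is not limited to decay factors and includes Malt1. Among its 17 measured genes, 2 were higher and 1 lower in wild type, and 3 higher and 1 lower in knockout. Malt1, not itself a decay factor, was 1 of the higher calls in each genotype. Of the higher calls, 1 in each genotype rests on a bound of a gene above background with LPS alone. Zfp36l2, a relative of Zfp36, was 2.50-fold lower with LPS in wild type and 2.78-fold lower in knockout. Zfp36l1, another relative, was 2.59-fold higher in untreated knockout, where Zfp36 was 2.23-fold lower. Malt1, the protease that cleaves Regnase-1, was 3.05-fold higher in wild type and 3.80-fold in knockout. The Regnase relative Zc3h12c was 1.997-fold higher in wild type, just short of the call, and 3.04-fold in knockout.

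The signal chains themselves had smaller medians than the 9 genes. Of 18 genes of the TLR4 chain 3 were higher and 1 lower in wild type, and 6 higher and 1 lower in knockout, with medians of 0.28 and 0.37. Irak2, a kinase of the complex that Irak3 restrains, was 2.44-fold higher in wild type and 5.28-fold in knockout. Its genotype difference was -0.55 without and 0.56 with LPS, the same signs as in Irak3. Of 14 genes of the JAK-STAT chain 6 were higher in wild type and 4 in knockout, with 0 lower and medians of 0.54 and 0.41. In the difference of the LPS responses 4 of these 14 were lower and 0 higher, against 2.92% and 1.69% of all genes. Among the 4 were Stat2 (-1.08), the interleukin 10 receptor gene Il10ra (-1.26) and the growth factor receptor gene Csf2rb (-1.71). Stat3, which drives Socs3, was 2.87-fold and 3.44-fold higher.

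Transcripts known as targets of tristetraprolin or Regnase-1 had the largest median responses of the lists. Of 14 listed, all 10 measured in wild type and all 11 measured in knockout were higher with LPS, but 3 and 4 of these calls rest on bounds of genes above background with LPS alone, which could not come out lower. The medians were 5.85 and 7.70, or 5.21 and 7.02 with dim values at their bound. Without LPS 4 of 7 measured were lower and 1 higher in knockout (3.91% and 3.07% of all genes), with a median of -1.12. With LPS 4 of 11 were higher and 0 lower (1.86% and 4.37% of all genes), with a median of 0.77. Of these 4, 1 rests on a bound of a gene above background in knockout with LPS alone, which could not come out lower. In the difference of the LPS responses 4 of 7 were higher and 0 lower (1.69% and 2.92% of all genes), with a median of 1.21. Cxcl2, a neutrophil chemokine, had scaled levels of -0.65 and 6.35 in wild type without and with LPS, and of -3.52 and 7.12 in knockout. Ccl2, a monocyte chemokine, had 4.40 and 9.10 in wild type, and 0.83 and 8.53 in knockout. In Cxcl2, as in Irak3 and Zfp36, knockout had both the lowest and the highest array. This held also in Ptgs2, narrowly for the lowest, and in Atf3, Irak2 and further genes of the other lists. Its share over all genes was not computed. With LPS, Il6 was 4.22-fold higher in knockout, while Il1b differed by -0.14.

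**Figure D5:**
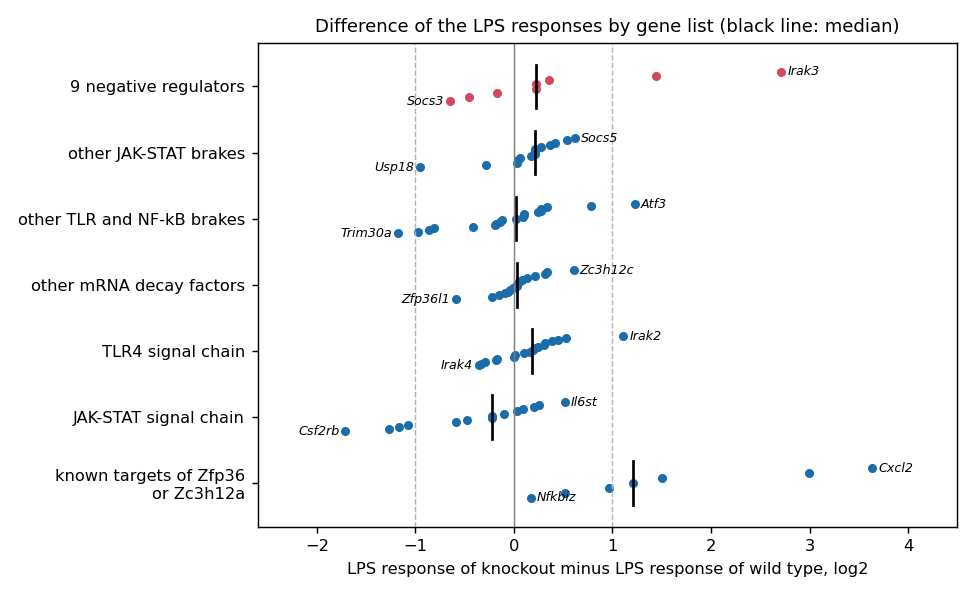
Difference of the LPS responses, knockout minus wild type, in log2 (horizontal axis) for each gene of the 9 brakes (red) and of 6 lists of related genes (blue), genes well above background on all 4 arrays, with black lines at the medians and dashed lines at 2-fold. The medians run from -0.22 in the JAK-STAT chain to 1.21 in the known targets of Zfp36 or Zc3h12a, with 0.22 for the 9 brakes; the lowest and the highest gene of each list are named.

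The genes with the most similar pattern over the 4 arrays were found among 11897 genes with a symbol that were above background on all 4 arrays, by the root mean square of the log2 differences after centring each gene on its own mean. With 4 values a gene, this is a description only. Tnip1 was closest to Syk (0.0249) and Zc3h12a to Pafah2 (0.0177), while Socs1 was closest to Slc11a1 (0.0330) and Tnip3 to Lats2 (0.0346). Tnfaip3 had Tent5a (0.0985) and Zfp36 had Rab20 (0.0956). Irak3 and Socs3 had no gene as close: for Irak3 the nearest was Clec4e (0.223) and for Socs3 it was Timp1 (0.258). Clec4e, a receptor for mycobacterial glycolipid, was 2.36 and 4.45 higher with LPS in wild type and knockout, and -1.84 in untreated knockout against wild type.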

How the data were processed

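Spot intensity, linear and background subtracted, came from the deposited scanner files. Per the file headers they were written by Feature Extraction 10.7.1.1, whereas the submitters' processing notes name 9.5.1.1. Flags for background, saturation and outliers are deposited as 0 or 1 (unit: other). The deposited series table, also linear intensity, matched quantile normalized probe means within 0.01 log2 for 56470 to 56543 of 56605 probes, and served as an alternative. The arrays shared 1 slide and 1 scan time.

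After removal of control spots and outliers, spots of a probe were averaged and expressed as log2 of the processed signal minus the 75th percentile of the non-control probes of that array. A probe was well above background when at least a share of 0.5 of its spots was. A gene was represented by the probe well above background on most arrays, then by the highest mean. Names came from RefSeq accessions (32994 probes), symbols (10224), older symbols (520) or, for 12867, the file alone. Probe coordinates are in mm9 as in the files, and exon annotation in that build was not used here. Promoter sequences are RefSeq's, in GRCm38.p6.

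The text names all 9 genes with every probe, nearest patterns, Hsd17b4 and up to 5 genes of each list by the largest difference. Csf2rb was named beyond this rule after its value was seen, and Socs4 to Socs7 as other SOCS genes. A gene that met this rule is not reported here. The members and lists were chosen with earlier results of these data known. The additive model was fitted in R 4.3.3 with limma 3.58.1, using lmFit and eBayes, on genes well above background on at least 2 arrays. Its p-values measure only the spread between these arrays. Python 3.11.15, numpy 2.4.6, pandas 2.3.3 and matplotlib 3.10.9 did the rest. The call rule and the fit were tested on simulated data. As alternatives, background was corrected with normexp (offset 50), arrays were quantile normalized, centred on the median or centred on 7 spike-in probes, the series table was used, probes of a gene were averaged, dim probes were kept or genes dim on any of the 4 arrays dropped, thresholds were 1.5-fold or 4-fold, and the fit had a trended prior. The number of arrays limits the precision.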

Additional observations from a re-analysis of the deposited data

Results flagged for a closer look

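The genotype difference of Irak3 had opposite signs without and with LPS (-1.83 and 0.88, 2.71 apart). That of Zfp36 did too (-1.16 and 0.28, 1.44 apart). With 1 array a group these differences were not tested.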

How the results depend on the processing

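The counts of the 9 genes stayed within 1.5 times under the other normalizations, background corrections and filters run, and 115 recomputed counts did so in all, but 74 of these are counts of 0 that stayed 0. The other 7 follow from the threshold. Of the single values of the genes, 54 moved by more than the technical SD and 279 did not. Many of the 279 could not move. Averaging probes leaves a gene with 1 probe unchanged, and the filters on dim probes leave a gene above background on all arrays unchanged. At 4-fold, 4 genes were higher with LPS in wild type and 5 in knockout (3.33% and 3.47% of all genes), 0 were lower in untreated knockout (1.15%) and 1 was higher in the difference of the responses (0.251%). At 1.5-fold, 1 gene was higher and 4 were lower in knockout with LPS (6.24% and 9.58% of all genes), and 1 was lower in the difference of the responses (8.26%). No value of the 9 genes that passed the call changed sign. Irak3's difference of responses ran from 1.76 to 3.18 and that of Zfp36 from 1.29 to 1.44. The bound of Cish was lowest with normexp, 4.27 in wild type and 4.38 in knockout. Zc3h12a in untreated knockout, under the call, was -0.86 with the mean of its probes. In the limma fit with LPS, 7 of 9 genes passed with quantile normalization and with spike-in centring (Tnip3 at adjusted p 0.0508 and 0.0548), with 22.2% and 27.3% of all genes, and 9 with normexp and a trended prior, with 35.2% and 37.1% of all genes. The genotype term called 0 of the 9 in every setting run, and over all genes 56 with normexp, 85 with a trended prior and 11 with the stricter filter. Over all genes, normexp left 1154 higher and 917 lower with LPS in wild type and 1414 and 1339 in knockout, and for the genotype 216 and 307 without and 126 and 306 with LPS. Without a filter on dim probes these counts were 3224 and 3024, 3477 and 3956, 1874 and 2234, and 1383 and 2210. Spike-in centring moved the median LPS difference, here over genes well above background on both arrays, from 0.018 to -0.20 in wild type and from 0.035 to -0.20 in knockout, with 1312 higher and 2233 lower, and 1482 and 3175. Leaving out replicates was not possible with 1 array a group. No paired analysis was possible because no replicate numbers pair the arrays, apart from the additive fit, which sets LPS against untreated within each genotype.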
